A study of Mus musculus with 6 samples.

Results

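The 10 messages described here encode proteins that divide mitochondria (Fis1, Mff, Dnm1l), fuse them (Mfn1, Mfn2, Opa1) or mark them for removal by autophagy (Pink1, Bnip3, Bnip3l, Fundc1). They were taken by name from a table of 55376 genes, and all 10 passed the low-count filter that left 18054 genes for testing. The libraries came from muscle stem cells of C57BL/6 mice aged 3 months, sorted by fluorescence and prepared with SMART-seq2, a full-length cDNA method for little RNA. In 2 libraries the RNA had been immunoprecipitated with an antibody to CPEB4 (CPEB4 RIP), an RNA-binding protein that acts on messages with cytoplasmic polyadenylation elements. A further 2 had been immunoprecipitated with IgG, a nonspecific antibody (IgG RIP), and 2 were total RNA (input). All groups share this strain, age and cell type, with no genotype or treatment given in the labels, and which animals each library came from is not stated.

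Mitochondria form a network that is constantly divided and rejoined. The dynamin-related GTPase encoded by Dnm1l (DRP1) is recruited by outer membrane adaptors such as MFF and constricts the organelle, while the mitofusins MFN1 and MFN2 join outer membranes and OPA1 joins inner membranes and shapes cristae. In mitophagy, the kinase PINK1 accumulates on depolarised mitochondria and marks them through phosphorylated ubiquitin, whereas BNIP3, BNIP3L (NIX) and FUNDC1 are outer membrane receptors that bind the autophagosome directly. Muscle stem cells rely on this quality control while they are quiescent and remodel their mitochondria when they activate.

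Total counts were 9018323 to 20843042 per library, and the 10 messages together received 3269 to 9153 of them, 0.0362% to 0.0480%. The lowest count of any of them in a library was 98 (Opa1 in IgG RIP replicate 2). The IgG RIP libraries stood apart from each other. Their Pearson r of log2 CPM (counts scaled to library depth by TMM) was 0.95 over 18054 genes. The r was 0.993 for the CPEB4 RIP pair and 0.989 for the input pair. IgG RIP replicate 1 was closer to the input libraries (0.973 and 0.970) than to replicate 2, which stood at 0.955 and 0.956 to input. The IgG pair thus did not form a group distinct from input, which limits each comparison over IgG. Genes detected were 30953 in IgG RIP replicate 1 and 23297 in replicate 2. Among the 10 messages the IgG RIP libraries differed most in Opa1 (2.22-fold), Pink1 (1.90-fold) and Mff (1.56-fold). In CPEB4 RIP the widest difference between replicates was 1.17-fold (Mff). In no group did the replicates agree within sampling noise, with a chi-square per degree of freedom of 8.03 for CPEB4 RIP, 28.1 for IgG RIP and 14.7 for input. The labels name no animal or culture, and p-values reflect only how these libraries vary, which may be technical.

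The muscle stem cell label was borne out by its markers. The 13 markers of muscle stem cells summed to 47643 to 70235 CPM, most of it from Sdc4, which alone stood at 41597 to 61956 CPM. The satellite cell factor Pax7 stood at 151 to 290 CPM and Myf5 at 1172 to 4794 CPM in every library, and no marker of any list was at 0 in both libraries of a group. Markers of other cells were present too, and some stood higher in the CPEB4 libraries. The summed level of 8 erythroid markers was 344 and 674 CPM in the CPEB4 libraries, 109 and 170 in the IgG libraries and 123 and 196 in input. The 14 myofibre markers summed to 348 and 421 CPM in the CPEB4 libraries, 220 and 252 in the IgG libraries and 229 and 298 in input. For 8 fibro-adipogenic markers the sums were 1552 and 2040, 970 and 1375, and 656 and 863 CPM. The 9 leukocyte markers summed to 64.8 and 87.2, 41.2 and 54.5, and 35.7 and 42.9 CPM, and the 8 endothelial markers, for which the CPEB4 libraries overlapped IgG but not input, to 402 and 591, 295 and 419, and 330 and 363 CPM. Over IgG some markers of other cells passed the test, all higher, where 4.79% of all genes were higher and 3.42% lower. They were Hba-a1, Hba-a2 and Hbb-bs (3 of 7 tested) and Tnnt3, Myl1, Tnni2 and Mylpf (4 of 13). Col3a1 and Mfap5 (2 of 8), Fabp4 (1 of 8) and S100a8 (1 of 8) made up the rest. Below 0, without passing, lay 2 erythroid, 2 myofibre, 3 endothelial, 4 leukocyte and 0 fibro-adipogenic markers. Both CPEB4 libraries lay below both IgG libraries for Bpgm (log2 -0.41), Myh4 (-1.28), Ptprc (-1.70), Csf1r (-1.73) and Cd68 (-0.07). Of the 13 stem cell markers Fgfr4 was higher and Vcam1 lower. Against input, where Dnm1l was called, 4 stem cell markers were higher (Des, Sdc4, Spry1 and Fgfr4) and 3 lower (Vcam1, Calcr and Chodl). Of the other markers Hba-a1, Hba-a2 and Hbb-bs (3 of 7 tested) and Tnnt3, Myl1, Tnni2 and Pvalb (4 of 13) were higher than input. Col3a1, Col1a1 and Ly6a (3 of 8), Fabp4 and Cdh5 (2 of 8) and S100a8 (1 of 8) were also higher, and Tek was lower. Of all genes 8.0% were higher and 4.70% lower against input. Below 0 against input lay 1 erythroid, 2 myofibre, 1 endothelial, 2 fibro-adipogenic and 4 leukocyte markers. Myofibres are rich in mitochondria and maturing red cells remove theirs through BNIP3L, and the part of these other cells in the results below was not tested. In these libraries the number of cells of a type, the RNA per cell and the recovery by immunoprecipitation cannot be told apart.

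Per length of message, the 10 genes spanned a wide range of levels, in the authors' FPKM (fragments scaled to gene length and library depth). In input Fis1 was highest, at 25.9 and 24.7 FPKM, followed by Bnip3l (12.3 and 13.7), Fundc1 (11.7 and 11.4) and Dnm1l (8.44 and 11.8). Bnip3 (4.61 and 6.03), Pink1 (4.74 and 4.80) and Mff (3.60 and 3.41) lay in the middle, and the fusion genes Mfn1 (2.18 and 2.13), Opa1 (1.96 and 2.12) and Mfn2 (1.57 and 1.29) were lowest. The neighbours Fundc1 and Dnm1l, and Bnip3 and Pink1, had replicates that overlapped, and Mfn1 and Opa1 nearly did. In CPEB4 RIP the order changed at a few places. Fis1 stayed first at 53.7 and 49.1 FPKM, but Pink1 came next at 20.5 and 19.1, just above Bnip3l at 18.6 and 18.0. Dnm1l, at 5.0 and 4.34 FPKM, now overlapped Mff (5.54 and 4.62) and lay below Bnip3 (5.50 and 5.34), and Opa1 was last at 1.06 and 1.16. In IgG RIP Fis1 (21.9 and 31.5) and Bnip3l (12.0 and 18.1) led again, and Opa1 (1.37 and 0.652) and Mfn2 (1.65 and 1.32) were at the bottom with replicates that overlapped.

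**Figure D1:**
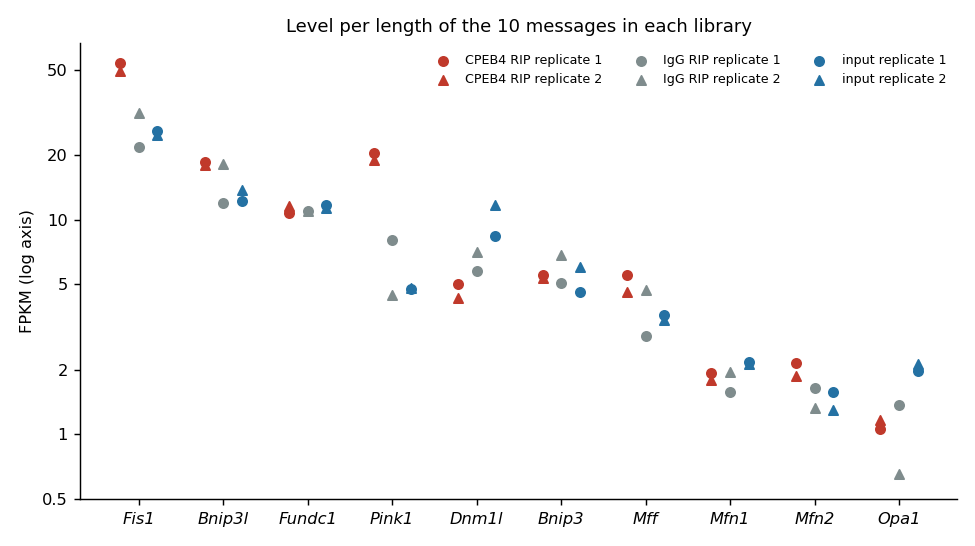
FPKM of the 10 messages on a log axis, ordered by their mean over the 6 libraries; colour marks the group, circles replicate 1 and triangles replicate 2. Pink1 lies at 4.45 to 8.04 FPKM in the IgG libraries and input and at 19.1 and 20.5 in the CPEB4 libraries, while Fundc1 stays between 10.8 and 11.7 in all libraries.

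Setting the CPEB4 libraries against IgG asks which messages the CPEB4 antibody recovered above a nonspecific one, and setting them against input asks which were recovered above their share of total RNA. Both use the same CPEB4 RIP libraries. Over IgG, 2 of the 10 messages were higher (Pink1 and Fis1), 0 were lower and 8 did not reach an adjusted p under 0.05 by edgeR's quasi-likelihood fit. Of all genes tested, 4.79% were higher and 3.42% lower (8.21% in all). The median log2 fold change was 0.12 over the 10 messages and -0.07 over all genes. At an unadjusted p under 0.05 there were 3 messages (Pink1, Fis1 and Dnm1l), against 26.8% of all genes. In 3 messages both CPEB4 libraries lay above both IgG libraries and in 2 below, where 29.4% and 25.5% of all genes did so (54.9% in all). Against input, Pink1 and Fis1 were higher, Dnm1l was lower and 7 did not pass, where 8.0% of all genes were higher and 4.70% lower (12.7% in all). The medians were 0.25 and -0.06. At an unadjusted p there were 5 messages, adding Opa1 and Bnip3l, against 28.1% of all genes. The libraries did not overlap, higher in 5 messages and lower in 3, where 34.4% and 37.6% of all genes did so (72.1% in all). DESeq2 called the same 2 messages over IgG and the same 3 against input, where it called 2892 and 3479 of all 18054 genes. The edgeR fit called 1482 and 2294 of them. With limma on log2(FPKM + 1) and no filter, 0 messages were called over IgG and 1 (Pink1) against input. Of 45787 genes that fit called 318 and 908.

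**Figure D2:**
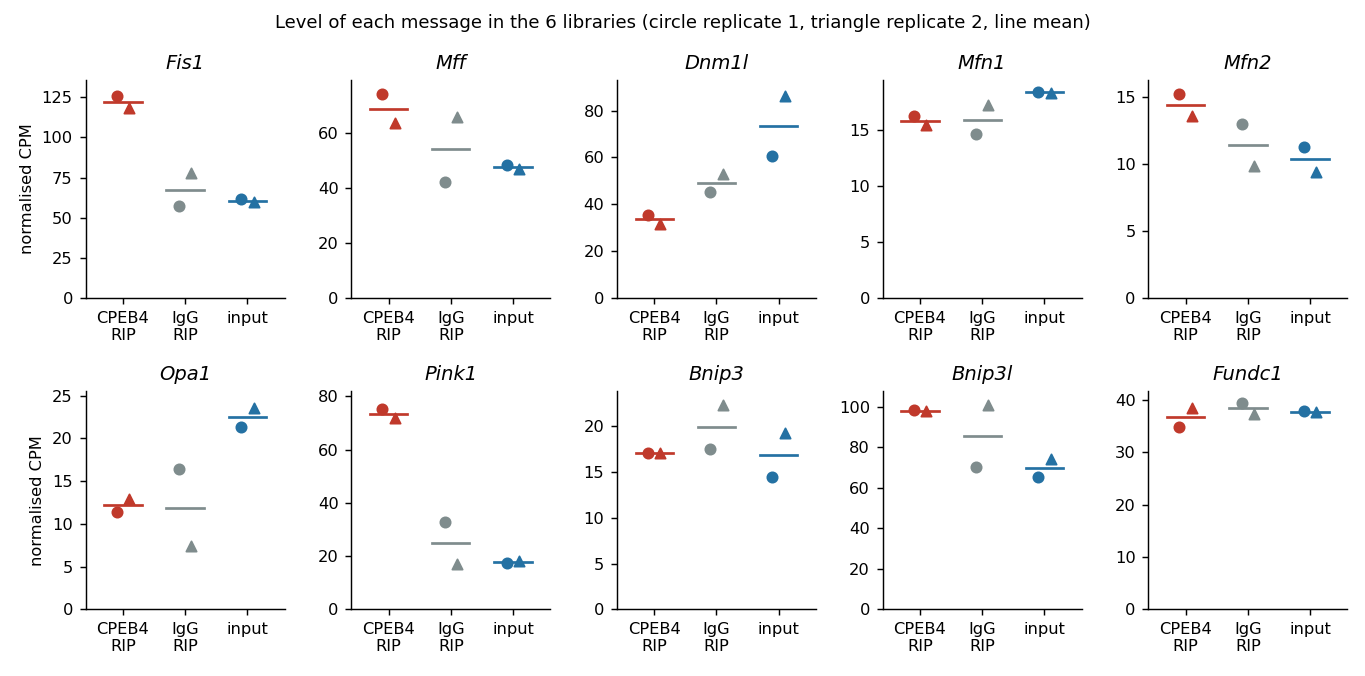
Normalised CPM of each message in the 6 libraries, with axes from 0; circles are replicate 1, triangles replicate 2 and lines the group mean. Both CPEB4 RIP libraries lie above all others for Pink1 and Fis1 and below all others for Dnm1l.

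Pink1 (chromosome 4, 138313409 to 138326296, GRCm38) had the widest difference. It stood at 75.1 and 71.8 CPM in the CPEB4 libraries, 32.6 and 17.1 in the IgG libraries and 17.5 and 18.0 in input. The CPEB4 RIP libraries did not overlap those of the other groups, and IgG RIP replicate 2 was at the level of input while replicate 1 was above it. Its fold was 2.97 over IgG (log2 1.57, SE 0.30, 95% interval 0.87 to 2.27, adjusted p = 0.0243) and 4.13 over input (log2 2.05, SE 0.30, interval 1.34 to 2.76, adjusted p = 0.00688), both from edgeR. Among all 18054 genes these changes lay at the 93.3 and 98.0 percentiles. Over IgG the log2 fold change was 2.28 without IgG RIP replicate 1 and 1.31 without replicate 2. With 1 IgG library left, the spread came only from the CPEB4 RIP and input pairs, so no p-value is given for these fits. Leaving out CPEB4 RIP replicate 1, CPEB4 RIP replicate 2 or input replicate 1 ended the call over IgG. So did fitting the CPEB4 RIP and IgG RIP libraries alone (edgeR adjusted p = 0.0718). The log2 changes in these fits were 1.54 to 1.74. Leaving out CPEB4 RIP replicate 2, input replicate 1 or input replicate 2 ended the call over input, with log2 changes of 2.04 to 2.14. Each of the fits that ended a call also called fewer of all genes, so the losses were not of Pink1 alone.

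Fis1 (chromosome 5, 136953275 to 136966234), a tail-anchored outer membrane protein of fission and of the handling of damaged mitochondria, stood at 126 and 119 CPM in the CPEB4 libraries, 57.0 and 77.8 in the IgG libraries and 61.4 and 59.6 in input. Both CPEB4 RIP libraries were above the other 4, of which IgG RIP replicate 2 was the highest. The fold was 1.81 over IgG (log2 0.86, SE 0.19, adjusted p = 0.0379) and 2.02 over input (log2 1.01, SE 0.19, adjusted p = 0.0153). Leaving out CPEB4 RIP replicate 1 or 2 ended the call over IgG, with log2 changes of 1.03 and 0.95. Over input the call was lost without any 1 of the 4 libraries of that comparison, and the log2 change was then 1.01 to 1.12. Fewer of all genes were called in these fits too, so the losses were not of Fis1 alone.

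Neither of the other fission genes was called higher. Dnm1l (chromosome 16, 16312228 to 16359038), the fission GTPase itself, stood at 35.6 and 31.8 CPM in the CPEB4 libraries, 45.4 and 53.1 in the IgG libraries and 60.6 and 86.0 in input. The 3 groups did not overlap, with CPEB4 RIP lowest and input highest. It was 2.18-fold below input (log2 -1.12, SE 0.22, adjusted p = 0.0189), and its difference from IgG (log2 -0.55, interval -1.07 to -0.03) did not pass (adjusted p = 0.168). Leaving out CPEB4 RIP replicate 1, CPEB4 RIP replicate 2 or input replicate 2 ended the call against input. The log2 changes were then -1.09, -0.98 and -0.83, in fits that also called fewer of all genes. Against IgG the log2 change was -0.30 without IgG RIP replicate 2. The ratio of Fis1 to Dnm1l, in FPKM, was 10.7 and 11.3 in the CPEB4 RIP libraries, 3.81 and 4.45 in the IgG libraries and 3.07 and 2.10 in input; no test was made of this ratio.

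Mff (chromosome 1, 82724890 to 82752390), the receptor that brings DRP1 to the membrane, stood at 74.1 and 63.5 CPM in the CPEB4 libraries, 42.3 and 66.0 in the IgG libraries and 48.5 and 46.8 in input. IgG RIP replicate 2 lay within the CPEB4 RIP range and replicate 1 below input, so that the change over IgG depended on which was used. The log2 fold change was 0.34 over IgG (interval -0.21 to 0.89, adjusted p = 0.393) and 0.53 over input (interval -0.02 to 1.08, adjusted p = 0.195). Without IgG RIP replicate 2 it was 0.83 over IgG and 0.59 over input. Without IgG RIP replicate 1 it was 0.24 over IgG and 0.58 over input. In the fit to the CPEB4 RIP and input libraries alone it was 0.49 (edgeR adjusted p = 0.0215). That fit called 7340 of 16966 genes, against 2294 of 18054 with all libraries, so passing it does not set Mff apart. The RefSeq table places 2 long noncoding genes across Mff, and with no strand setting stated for the counting, reads of these genes cannot be told apart from those of Mff.

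None of the fusion genes passed in either comparison. In edgeR 0 of 3 had an unadjusted p under 0.05 over IgG and 1 (Opa1) over input, and DESeq2 called 0 in both. Mfn1 (chromosome 3, 32529443 to 32579225) stood at 16.2 and 15.4 CPM in the CPEB4 libraries, 14.6 and 17.2 in the IgG libraries and 18.4 and 18.3 in input. Its log2 fold change was -0.01 over IgG (interval -0.57 to 0.56) and -0.21 over input (interval -0.77 to 0.35). The value over IgG turned above 0, to at most 0.08, with the mitochondrial genome removed, with no filter and in FPKM. It stayed below 0 with DESeq2 size factors (-0.02) and with library size alone (-0.08). With each library left out in turn it was between 0.06 and 0.25. The gene overlaps Gnb4 in the RefSeq table. Its paralog Mfn2 (chromosome 4, 147873586 to 147904909), which also tethers mitochondria to the endoplasmic reticulum, stood at 15.2 and 13.6 CPM in the CPEB4 libraries, 13.0 and 9.89 in the IgG libraries and 11.3 and 9.45 in input. Its CPEB4 RIP libraries were the highest of the 6, by less than the error of the fit, with a log2 fold change of 0.34 over IgG (interval -0.35 to 1.02) and 0.48 over input (interval -0.21 to 1.16). Over IgG it was 0.72 without IgG RIP replicate 1.

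Opa1 (chromosome 16, 29579281 to 29663127) was the member whose comparison depended most on the IgG libraries. It stood at 11.4 and 12.9 CPM in the CPEB4 libraries, 16.4 and 7.40 in the IgG libraries and 21.4 and 23.5 in input. The CPEB4 RIP values lay between the IgG RIP values, and all 4 immunoprecipitated libraries were below both input libraries. Over IgG the log2 fold change was 0.04 (interval -0.85 to 0.93, adjusted p = 0.960). It was 0.90 without IgG RIP replicate 1 and -0.29 without replicate 2. Against input it was -0.88 (interval -1.76 to -0.0016, adjusted p = 0.178). The value against input was -0.82 without IgG RIP replicate 1 and -0.81 without replicate 2. In the fit to the CPEB4 RIP and input libraries alone Opa1 passed at -0.92 (edgeR adjusted p = 0.00253). So did 7340 of the 16966 genes in that fit, against 2294 of 18054 with all libraries.

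Of the mitophagy receptors, none passed in either comparison. At an unadjusted p under 0.05 in edgeR there were 0 of 3 over IgG and 1 (Bnip3l) over input, and DESeq2 called 0 in both. Bnip3l (chromosome 14, 66985238 to 67008877), which clears mitochondria from maturing red cells and in hypoxia, stood at 98.4 and 97.8 CPM in the CPEB4 libraries, 70.2 and 101 in the IgG libraries and 65.3 and 74.4 in input. CPEB4 RIP was above input and overlapped IgG RIP. The log2 fold change was 0.20 over IgG (interval -0.28 to 0.68, adjusted p = 0.572) and 0.49 over input (interval 0.01 to 0.97, adjusted p = 0.170). Without IgG RIP replicate 2 it was 0.62 over IgG and 0.56 over input. Without replicate 1 it was 0.14 over IgG and 0.55 over input. In the fit to the CPEB4 RIP and input libraries alone Bnip3l passed at 0.45 (edgeR adjusted p = 0.0238), as did 7340 of 16966 genes.

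Bnip3 (chromosome 7, 138890836 to 138909506), a paralog of Bnip3l that is likewise induced by hypoxia, stood at 17.1 and 17.0 CPM in the CPEB4 libraries, 17.5 and 22.3 in the IgG libraries and 14.4 and 19.2 in input. CPEB4 RIP lay just below IgG RIP and inside the input range. Its log2 fold change was -0.22 over IgG (interval -0.85 to 0.40) and 0.02 over input (interval -0.60 to 0.64). Per length there was more Bnip3l than Bnip3 message in every library, with ratios of 3.38 and 3.37 in the CPEB4 libraries, 2.35 and 2.66 in the IgG libraries and 2.66 and 2.27 in input. Fundc1 (chromosome X, 17519967 to 17572329), the receptor whose binding to LC3 is set by phosphorylation, was the most even of the 10 messages. It stood at 34.8 and 38.5 CPM in the CPEB4 libraries, 39.5 and 37.3 in the IgG libraries and 37.9 and 37.6 in input. The log2 fold change was -0.07 over IgG (interval -0.50 to 0.36) and -0.04 over input (interval -0.47 to 0.38). Some alternative fits and some left-out libraries turned these signs. The 95% interval lay within a 2-fold change either way for 6 of the 10 messages over IgG (Mff, Mfn1, Opa1, Bnip3, Bnip3l and Fundc1) and for 4 over input (Mfn1, Bnip3, Bnip3l and Fundc1). The same count over all genes was not made. These intervals use a spread shared by the 3 groups, though the IgG RIP libraries differed most. With 1 IgG RIP library left out, Opa1 over IgG stood at 0.90 or -0.29 and Mff at 0.24 or 0.83.

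**Figure D3:**
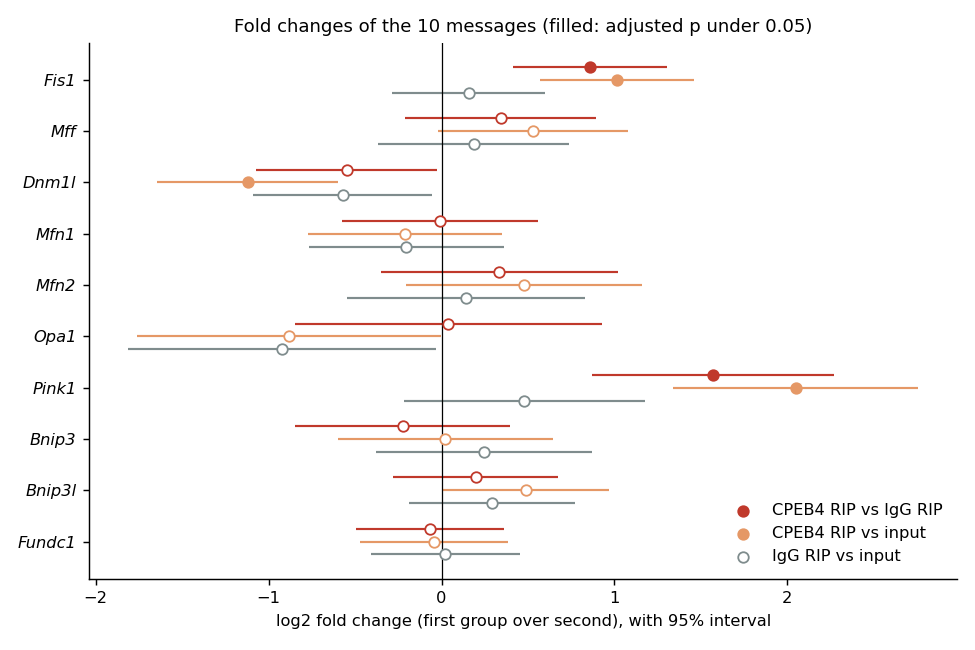
Log2 fold changes of the 10 messages in the 3 comparisons, with 95% intervals from edgeR's quasi-likelihood fit; filled points have an adjusted p under 0.05. Pink1 and Fis1 lie to the right of 0 in both comparisons with CPEB4 RIP, Dnm1l lies at -1.12 against input, and no point of IgG RIP against input is filled.

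IgG RIP against input shows how the messages behaved in an immunoprecipitation without the CPEB4 antibody. Of the 10 messages 0 passed in edgeR, as did 0.00% of all genes. At an unadjusted p under 0.05 there were 2 messages, Dnm1l (log2 -0.57, adjusted p = 0.317) and Opa1 (-0.92, adjusted p = 0.340), and 2550 of all genes (14.1%). DESeq2 called 706 genes and 0 of the 10. Dnm1l, Opa1 and Mfn1 were lower in both IgG RIP libraries than in both input libraries (3 of 10, against 20.7% of all genes), and 0 were higher in both, against 21.4% (42.0% of all genes in either direction). Pink1 stood at 0.48 (interval -0.22 to 1.18). Without IgG RIP replicate 2 Pink1 rose to 0.80 and Dnm1l stood at -0.76. Without replicate 1 Opa1 stood at -1.72, Dnm1l at -0.58 and Pink1 at -0.18.

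Partner genes of the 10 messages were read from the same fits in 6 lists. Fits without an IgG RIP library take their spread from the closer CPEB4 RIP and input pairs. More calls in those fits are therefore not stronger evidence. The number of calls in the whole table was 0 genes over IgG without CPEB4 RIP replicate 2 (2312 at an unadjusted p under 0.05) and 7710 or 7405 without IgG RIP replicate 1 or 2, against 1482 with all libraries. Of 19 fission and fusion partners tested, 2 were higher over IgG and 0 lower, with a median of 0.28, where 4.79% of all genes were higher and 3.42% lower. Against input 2 were higher and 1 lower, where 8.0% and 4.70% of all genes were. March5, the membrane-anchored ubiquitin ligase that acts on DRP1 and the mitofusins, stood at a mean of 78.1 ± 5.47 CPM (SD, n = 2) in the CPEB4 libraries, 27.2 ± 2.31 in the IgG libraries and 26.8 ± 2.25 in input, with log2 changes of 1.53 over IgG (SE 0.19, adjusted p = 0.00886) and 1.54 over input (0.00383). Sh3glb1 (endophilin B1), which bends membranes, rose by 1.37 over IgG (SE 0.16, adjusted p = 0.00789) and 1.26 over input (0.00427). Against input the RNA-binding protein gene Fastkd2 was lower (-1.33, adjusted p = 0.0425), and the median was -0.06. The count over IgG was 0 without CPEB4 RIP replicate 2 and 8 without IgG RIP replicate 1, and that against input 0 without CPEB4 RIP replicate 2 and 6 without either IgG RIP library.

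The 18 genes of OPA1 processing and cristae had 2 higher members over IgG and 0 lower (median 0.41), and 2 higher and 2 lower against input (median 0.29). Of all genes 4.79% were higher and 3.42% lower over IgG, and 8.0% and 4.70% against input. The small subunits Micos10 and Micos13 of the MICOS complex, which holds cristae junctions, rose by 0.94 (adjusted p = 0.0358) and 0.69 (0.0479) over IgG and by 0.99 (0.0205) and 0.89 (0.0155) over input. Immt, the large core subunit of the same complex, was lower than input (-1.19, adjusted p = 0.0212), as was the inner membrane protease subunit Afg3l2 (-1.06, 0.0146). Subunits of 1 complex thus lay on both sides of input. Over all genes the median change against input went from 0.84 in the shortest of 10 equal bins by gene length to -0.39 in the longest. The contrast between the subunits is not set against length here. Over IgG 0 of the list passed without either CPEB4 RIP replicate and 10 without IgG RIP replicate 2. Against input 0 passed without CPEB4 RIP replicate 2 or either input library and 11 without either IgG RIP library.

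Genes of the PINK1 and ubiquitin pathway lay on both sides of 0. Of 29 genes tested 4 were higher and 6 lower over IgG (median -0.24), and 6 were higher and 6 lower against input (median -0.23). The shares of all genes were 4.79% and 3.42% over IgG and 8.0% and 4.70% against input. Subunits of the outer membrane translocase, on which PINK1 accumulates, were among the higher members. Tomm7, the small subunit that helps to retain PINK1 there, rose by 1.29 over IgG (SE 0.24, adjusted p = 0.0231) and 1.37 over input (0.0126), and the import receptor Tomm20 by 1.16 (0.0180) and 0.90 (0.0247). Tomm70a, another import receptor, was higher than input (1.49, 0.00698), and Nipsnap2, a mitochondrial protein that recruits autophagy adaptors, rose by 0.81 (0.0348) over IgG and 0.97 (0.0128) over input. Usp30, a deubiquitinase of the outer membrane, had counts of 41 and 54 in the CPEB4 libraries, 3 and 5 in the IgG libraries and 55 and 21 in input. Its log2 change over IgG was 3.12 (adjusted p = 0.0414), and its CPEB4 and input libraries overlapped (log2 0.42, adjusted p = 0.700).

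Over IgG, the autophagy adaptors Tax1bp1 (-1.13, SE 0.14, adjusted p = 0.00895) and Sqstm1 (-0.95, SE 0.12, 0.00935), the deubiquitinase Usp15 (-1.36, 0.0110) and Vcp, the ATPase that extracts ubiquitylated proteins (-0.87, 0.0161), were lower. Optn, the other main adaptor (-1.54, 0.0311), and its kinase Tbk1 (-1.10, 0.0324) completed the 6; Optn was named after its value was seen. Sqstm1 stood at 1156 CPM in the CPEB4 libraries, 2231 in the IgG libraries and 1613 in input. Against input Usp15 (-1.80), Tax1bp1 (-1.25), Tbk1 (-1.99) and Usp8 (-1.22), another deubiquitinase, were lower, each with an adjusted p of at most 0.00786. For the list as a whole the count over IgG was 0 without CPEB4 RIP replicate 2 and 20 without IgG RIP replicate 1, and that against input 0 without CPEB4 RIP replicate 2 and 14 without either IgG RIP library.

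Among 13 mitophagy receptors and partners of the ATG8 family, 1 was higher over IgG (median 0.28) and 6 were higher against input (median 0.60), with 0 lower in either, beside 4.79% and 8.0% of all genes higher in these comparisons. The gene called over IgG was Fundc2, the paralog of Fundc1. It rose by 1.42 over IgG (SE 0.22, adjusted p = 0.0141) and 1.02 over input (SE 0.21, 0.0221), where Fundc1 stood at -0.07 and -0.04. The ratio of Fundc2 to Fundc1 in FPKM was 1.4 and 1.42 in the CPEB4 libraries, 0.418 and 0.592 in the IgG libraries and 0.647 and 0.701 in input, so that Fundc2 was the more abundant of the pair in the CPEB4 libraries and the less abundant elsewhere. No test was made of the ratio. Against input the ATG8 proteins Gabarap (0.93, adjusted p = 0.0105) and Map1lc3a (0.82, 0.0139) and the receptor Fkbp8 (1.12, 0.0263) were higher. The count over IgG was 0 without either CPEB4 RIP library and 5 without either IgG RIP library. That against input was 0 without CPEB4 RIP replicate 2 or input replicate 1 and 10 without either IgG RIP library.

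Of 13 genes of mitochondrial transport 0 were higher over IgG (median 0.22) and 2 lower, the outer membrane proteins Armcx1 (-1.55, adjusted p = 0.0391) and Armcx3 (-0.82, 0.0457). Against input the GTPase Rhot1 (Miro1), which links mitochondria to motors, was lower (-1.17, 0.00713), Armcx3 was lower (-1.12, 0.0122) and the motor adaptor Trak1 was higher (1.11, 0.00808). Hypoxia-induced genes, the class to which Bnip3 and Bnip3l belong, had 0 of 15 higher and 2 lower over IgG (median 0.02), Hk2 (-1.08, 0.0110) and Aldoa (-0.56, 0.0407). Of all genes 3.42% were lower over IgG, and 8.0% were higher and 4.70% lower against input. Against input 2 were higher, Vegfa (1.48, 0.00687) and Higd1a (0.77, 0.0233), and Hk2 was lower (-1.30, 0.00331). Over IgG both lists had 0 calls without either CPEB4 RIP replicate, and without either input library transport had 0 and hypoxia 1; transport had 8 and hypoxia 7 without IgG RIP replicate 1. Against input both had 0 without CPEB4 RIP replicate 2, transport had 0 without input replicate 2, and both had 6 without IgG RIP replicate 2.

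**Figure D4:**
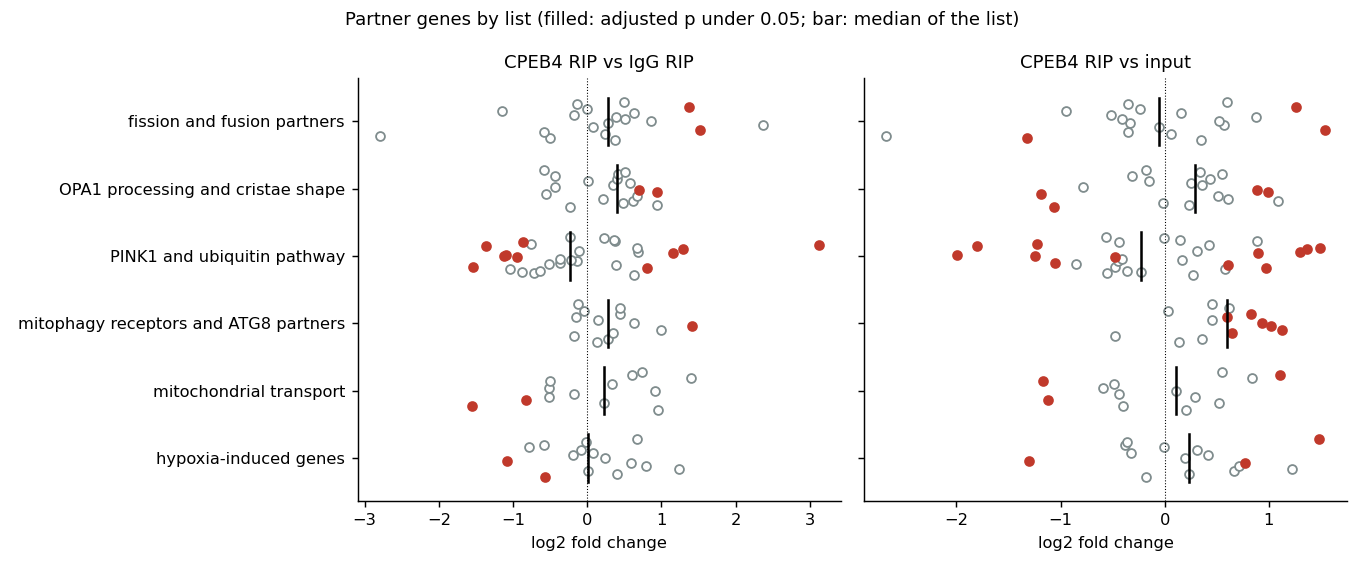
Log2 fold change of each partner gene by list, over IgG RIP on the left and over input on the right; filled points have an adjusted p under 0.05 in edgeR and black bars are list medians. The PINK1 and ubiquitin pathway has filled points on both sides of 0, and the receptor list has 6 filled points against input, all above 0.

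Gene model length moved with the comparison and is given beside the members, but not beside the partner genes. Over all genes the median log2 change over IgG went from 0.53 in the shortest of 10 equal bins by length to -0.40 in the longest, and against input from 0.84 to -0.39. Fis1 had 0.446 times the length of the median gene and Pink1 0.696 times, while Dnm1l (1.36 times), Mfn1 (1.59), Opa1 (2.05) and Mff (2.54) were longer. Within its own length bin, Pink1 lay at the 91.7 percentile of changes over IgG and the 99.2 over input, and Fis1 at the 77.8 and 87.2 percentiles. Mff, one of the longer genes, lay at the 85.8 and 89.8 percentiles, and Dnm1l at the 31.4 and 19.9. With a gene length offset, 0 of 18054 genes passed over IgG in edgeR (3798 at an unadjusted p under 0.05), with Pink1 at 1.51 (adjusted p = 0.0826) and Fis1 at 0.62 (0.257). Against input Pink1 stood at 2.22 (0.0261), Fis1 at 1.0 (0.0904) and Dnm1l at -0.89 (0.137) in that fit.

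**Figure D5:**
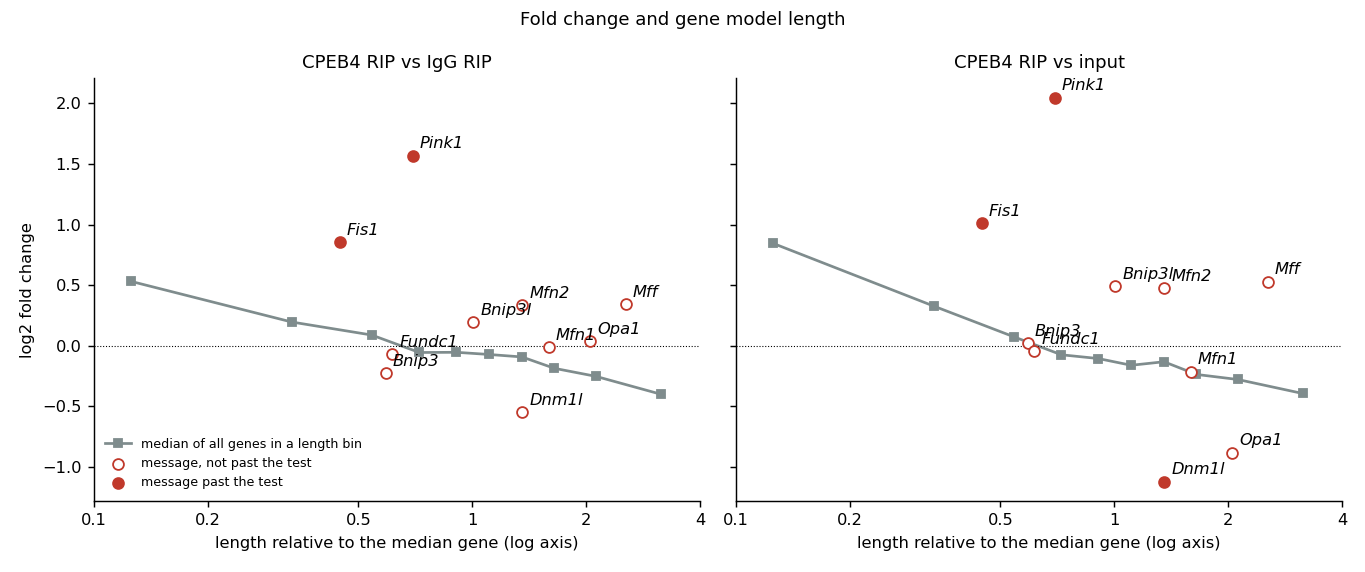
Log2 fold change against the length of the gene model relative to the median gene, on a log axis; squares are medians of all tested genes in 10 bins by length, and circles are the 10 messages, filled where the adjusted p was under 0.05. Pink1 and Fis1 lie above the line of medians in both panels and Dnm1l below it.

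Across the 6 libraries the genes with the level pattern most like that of Pink1, among 7406 with a mean of at least 10 CPM, were March8 (Pearson r of log2 CPM 0.997), Naa10 (0.997) and Ctbp1 (0.996); 202 genes had an r above 0.95. For Fis1 they were the pseudogene Gpx4-ps2 (0.999), Ltbr (0.995) and Ankrd40 (0.995), with 426 above 0.95. The 6 points are 3 pairs of replicates, so these values describe which genes share the group pattern.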

How the data were processed

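Per the submitters' processing notes, reads were aligned with HISAT2 to mm10 and counted with featureCounts; their versions, the annotation, strand setting and treatment of multiply mapped reads are, in the sources used here, not given. The deposited table holds raw counts per gene. The deposited FPKM table is the authors' scaling of those counts by length and by a library total that is not stated; its constants differ from the totals of counts by a ratio of 0.986 to 1.21. Relative gene length is counts over FPKM.

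Counts were tested in R 4.3.3 with edgeR 4.0.16: filterByExpr (minimum count 10, minimum total 15), TMM scaling, and a quasi-likelihood fit with group as its only term to all 6 libraries (3 residual degrees of freedom). Tests were two-sided, with Benjamini-Hochberg adjustment over 18054 genes and a threshold of 0.05. SE is the log2 fold change divided by the square root of F. PCR reads without molecular identifiers are not independent molecules. Positions are from RefSeq on GRCm38 (mm10). The code was tested on simulated data. Ratios of FPKM between genes are given as descriptions, with no test.

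The members and lists were chosen with earlier results of these data known. Named partners were those past a test over IgG or input, up to 4 a direction by p (for likeness, 3 genes by r); not all are printed, and 1 gene of a list is not reported here. Alternatives were other scalings, filters, DESeq2 1.42.0, limma 3.58.1 on log2(FPKM + pseudocount), 4 libraries alone, a replicate term and each library left out. A length offset (loess, span 0.3) was added after seeing the data.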

Additional observations from a re-analysis of the deposited data

How the results depend on the processing

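Of 85 alternative values for the 5 calls of Pink1, Fis1 and Dnm1l, 24 kept the direction but lost the call and 0 reversed. The others kept the call, but they include every fit without an IgG RIP library. Such fits take their spread from the closer CPEB4 RIP and input pairs, so a call kept there adds no evidence. The ranges were 1.31 to 2.28 over IgG and 1.83 to 2.22 over input for Pink1. They were 0.62 to 1.24 and 0.80 to 1.13 for Fis1, and -1.34 to -0.83 for Dnm1l against input. The 2 messages called over IgG became 0 with limma on unfiltered log2(FPKM + 1) and with the gene length offset, 1 with those 4 libraries alone, and 0 to 4 with 1 library left out. The 3 called against input became 1 with unfiltered FPKM, 1 with the length offset, 6 with 4 libraries alone, and 0 to 6 with 1 left out. For IgG against input the 0 became 0 to 2 with 1 left out. The replicate numbers share only a name in the labels (correlations of deviations 0.112, -0.0167 and 0.108); a replicate block left 2, 3 and 0 messages and moved the count over all genes from 1482 to 1850, 2294 to 2615 and 0 to 25.

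Over all genes, calls over IgG were 2892 with DESeq2, 2428 with no filter, 318 with unfiltered FPKM, 973 with 4 libraries, 0 with the length offset and 0 to 7710 with 1 left out. Against input they were 3479, 908 (unfiltered FPKM), 7340 (4 libraries), 661 (length offset) and 117 to 7966. Library size alone moved the share of calls that were higher from 58.3% to 46.8% over IgG and from 63.0% to 43.7% against input, and the all-gene medians to -0.15 and -0.27; FPKM gave 76.5% over IgG. For IgG against input calls were 457 (no filter), 706 (DESeq2) and 0 to 6657 with 1 left out.

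Reversals were among messages not called, and the cause was not tested. Over IgG, Opa1 was -0.072 with library size alone and -0.0013 with 4 libraries. Mfn1 was 0.073 with the mitochondrial genome removed, 0.076 with no filter, 0.055 with log2(FPKM + 1), filtered or not, and 0.084 with log2(FPKM + 0.1), where Fundc1 was 0.013, 0.024, 0.020 and 0.022. Against input, Bnip3 was -0.030 with DESeq2 size factors, -0.029 with DESeq2, -0.18 with library size alone and -0.014 with 4 libraries; Fundc1 was 0.069 with no filter and 0.087 with the length offset, and Mfn1 0.057 with the latter. For IgG against input, Fundc1 was -0.013 with DESeq2 size factors, -0.014 with DESeq2, -0.11 with library size alone, -0.056 with the mitochondrial genome removed, -0.057 and -0.062 with FPKM and -0.058 with 4 libraries; Mfn1 was 0.062 with the length offset. With 1 library left out, values over IgG ran from 0.059 to 0.25 (Mfn1), -0.29 to 0.90 (Opa1), -0.21 to 0.10 (Bnip3) and -0.089 to 0.21 (Fundc1); against input from -0.15 to 0.26 (Bnip3) and -0.053 to 0.14 (Fundc1); and for IgG against input from -0.18 to 0.80 (Pink1), -0.16 to 0.24 (Fis1), -0.24 to 0.35 (Mff), -0.19 to 0.25 (Mfn2), -0.065 to 0.33 (Bnip3), -0.065 to 0.41 (Bnip3l) and -0.14 to 0.036 (Fundc1). A lone library was taken to vary like the other groups, so more calls without an IgG RIP library are not stronger evidence.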
